A study of Mus musculus with 70 samples.

Results

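The 10 genes described here were the annexins Anxa1, Anxa2, Anxa3, Anxa5, Anxa6 and Anxa8 and the S100 genes S100a4, S100a6, S100a10 and S100a11, out of 21154 gene symbols with a probe on the arrays. They were taken as the probes whose transcript accession belongs to one of these genes, which gave 13 probes, and the brightest probe of each gene is reported unless another is named. Anxa8 was chosen by its measured level, known to rise strongly with passage, so its values from P0 to P6 are given as a description and carry no test. The other 9 genes were tested in every comparison.

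The cells were RENCA, a renal adenocarcinoma line of BALB/c mice with wild-type Vhl, carrying green fluorescent protein (GFP). Parental cells (P0, 2 RNA samples) were passaged up to 6 times through 6-week-old female BALB/c mice by 3 routes, and RNA was taken from cultures grown out of the explanted tissue. KPT lines came from kidney tumors after injection under the renal capsule (5, 2, 2, 3, 5 and 5 RNA samples from P1 to P6). T-LM lines came from lung metastases after tail vein injection (5, 2, 3, 4, 6 and 4 samples), and K-LM lines from lung metastases that followed implantation in the kidney (1, 1, 5, 3, 4 and 3 samples). All groups thus descend from 1 GFP line, and outgrowth in culture until GFP-negative cells were no longer seen stood between the mouse and the RNA. The labels do not say whether samples of a group came from separate mice, so the errors below measure the spread between these samples only. The 65 RNA samples were hybridized to 70 single-color arrays. All 3 K-LM P6 samples lay on a slide scanned later than the others, together with repeat arrays of both P0 samples and of 3 KPT P6 samples. In T-LM P1, the sample labelled LOT1 correlated least with the rest of its group (median r = 0.937), closely followed by replicate 2 (0.9415). Values are given with and without LOT1 where it matters. Keratins Krt8 and Krt18 and the renal factor Pax8 were well above background in all 65 RNA samples, whereas Pax2 was so in 0 and Epcam in 5.

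Annexins are proteins that bind negatively charged membrane lipids when calcium rises, and they take part in membrane repair, vesicle traffic and the control of inflammation. S100 proteins are small calcium-binding dimers of the EF-hand type, several of which dock onto annexins. S100a10 pairs with Anxa2 at the plasma membrane, where the complex promotes the activation of plasminogen, and S100a11 pairs with Anxa1. In carcinomas, S100a4 is known as a gene of motile and metastatic cells and as a fibroblast marker, and Anxa8 is a less widely expressed annexin found in some epithelia.

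Only 7 of the 10 genes matched an entry in the RefSeq promoter table (build GRCm38.p6). The 250 bases before the start are shown for Anxa8 and S100a4, because these were the genes with the strongest rise and with the only fall called between P0 and P6. Anxa8 lies on the plus strand (chr14:34085729-34085978), and S100a4 on the plus strand in the S100 gene cluster (chr3:90603520-90603769). Capitals mark a match to one of 4 motifs sought on both strands: the TATA box spelled TATAAA, the GC box spelled GGGCGG, the CCAAT box by its name, and the AP-1 site spelled TGANTCA. None of them contains another.
Anxa8: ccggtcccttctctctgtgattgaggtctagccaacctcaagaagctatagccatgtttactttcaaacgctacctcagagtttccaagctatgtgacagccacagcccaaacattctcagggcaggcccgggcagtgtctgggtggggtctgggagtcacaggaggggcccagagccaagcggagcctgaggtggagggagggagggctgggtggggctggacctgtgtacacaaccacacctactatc
S100a4: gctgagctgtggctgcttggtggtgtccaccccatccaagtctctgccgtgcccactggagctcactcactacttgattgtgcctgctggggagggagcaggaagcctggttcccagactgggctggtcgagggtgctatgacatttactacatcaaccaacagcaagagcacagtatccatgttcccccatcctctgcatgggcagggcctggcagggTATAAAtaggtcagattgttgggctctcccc
S100a4 held a TATAAA whose first base lay 31 bases before the start, and Anxa8 held none of the 4 motifs in this window. Among 27025 promoters of the same length, 3504 held the TATA box, and the share with the other motifs was 32.9% for the GC box, 34.5% for the CCAAT box and 6.87% for the AP-1 site.

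Anxa8 was close to background in the parental cells and bright in every passaged sample. Levels are log2 signals relative to the 75th percentile of the probes detected on all arrays, so 0 is that percentile and 1 unit is a doubling. On the 4 parental arrays Anxa8 stood at -5.14 and -7.01 and, when the same RNA was hybridized again, at -5.09 and -6.12. The lowest of these was the only one of the 70 arrays on which this probe was not well above background. In the 63 passaged RNA samples the level ran from -0.74 to 3.74 with a median of 2.73, so that all 63 lay above both parental samples. The lowest passaged sample still exceeded the higher P0 sample by 4.37, or 20.7-fold.

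The rise was already large after 1 passage. The 5 KPT P1 samples stood at -0.68, -0.74, 2.87, 3.00 and 2.74, and the 5 T-LM P1 samples at 1.87, 1.09, 2.05, 1.64 and, for LOT1, -0.21. The only K-LM P1 sample stood at 2.50. The P1 samples were thus far above P0 in each route but uneven within KPT, where 2 of 5 samples lay more than 3 units below the others. The mean difference from P0 was 7.28 in KPT P1 (155-fold) and, with LOT1 included, 7.13 in T-LM P1 (140-fold).

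**Figure D1:**
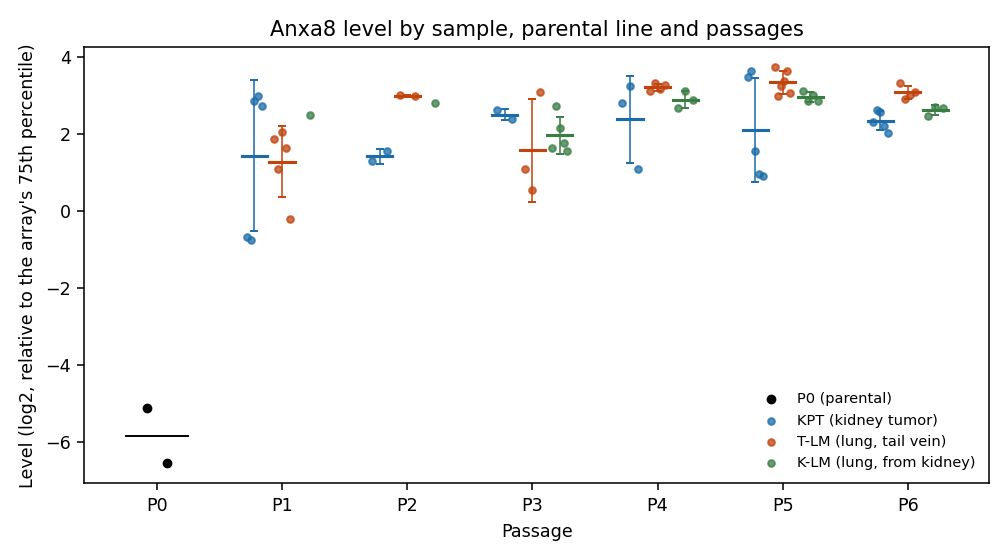
Anxa8 level of each RNA sample (log2, relative to the 75th percentile of its array, y axis) by passage (x axis) and route (color). Points are samples, horizontal bars group means, and error bars 1 SD. Both P0 samples sit below -5 and all 63 passaged samples at -0.74 or above.

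At P6 the KPT samples stood at 2.32, 2.63, 2.58, 2.20 and 2.03 (mean 2.35 ± 0.25 SD, n = 5). The T-LM samples stood at 3.32, 2.92, 3.01 and 3.09 (3.08 ± 0.17, n = 4), and the K-LM samples at 2.47, 2.71 and 2.67 (2.62 ± 0.13, n = 3). All T-LM P6 samples were above all P6 samples of the other two routes. Such a lack of overlap at P6 was shared by 19.4% of all probes between T-LM and KPT and by 42.9% between K-LM and T-LM. The KPT mean was 8.19 above that of P0 (293-fold), the T-LM mean 8.92 (486-fold) and the K-LM mean 8.46 (351-fold). These differences rest on a dim parental signal. Over routes and alternatives, the fitted difference ranged from 7.18 (KPT, slide as a fixed term) to 10.09 (T-LM, without P0 replicate 1). The second Anxa8 probe gave 7.56, 8.45 and 7.96 in KPT, T-LM and K-LM. On the later slide, which held both P0 and K-LM P6, the difference was 8.22. On the 1 slide with both P0 and T-LM P6 it was 10.32, from the P0 array not well above background.

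Ordered by their means, the groups ran from P0 through T-LM P1 (1.29), KPT P2 (1.42), KPT P1 (1.44), T-LM P3 (1.59), K-LM P3 (1.98), KPT P5 (2.11), KPT P6 (2.35), KPT P4 (2.38), K-LM P1 (2.50), KPT P3 (2.51), K-LM P6 (2.62), K-LM P2 (2.80), K-LM P4 (2.90), K-LM P5 (2.97), T-LM P2 (3.00), T-LM P6 (3.08) and T-LM P4 (3.22) to T-LM P5 (3.34). Of the 18 neighboring pairs in this order, only P0 with T-LM P1 and K-LM P6 with the single K-LM P2 sample had ranges that did not overlap. The T-LM P1 mean includes LOT1 (-0.21), and the other samples of that group ran from 1.09 to 2.05. Its place as the lowest passaged group therefore leans on LOT1.

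At P5 the routes differed less than the KPT samples did among themselves. KPT P5 was split, with 3.49 and 3.64 in replicates 1 and 2 against 1.55, 0.96 and 0.92 in replicates 3 to 5, while the 6 T-LM P5 samples ran from 2.99 through a median of 3.31 to 3.74 and the 4 K-LM P5 samples stood at 3.13, 2.87, 3.01 and 2.87. The means were 2.11 for KPT, 3.34 for T-LM and 2.97 for K-LM, and the samples of each pair of routes overlapped. The high KPT P5 replicates 1 and 2 also had the highest summed level of the 8 fibroblast markers of their group (4.72 and 2.78, against -1.22 to -0.76 in the other 3). Over the 63 passaged samples, Anxa8 correlated with this sum at r = 0.51, and in P0 the sum stood at -4.72 and -4.90. The part of these markers in the Anxa8 levels was not tested. In RNA from a whole culture, fewer cells of a type and less RNA per cell cannot be told apart.

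Over the 65 RNA samples, the 5 symbols whose level followed Anxa8 most closely, out of 11815 ranked, were Fxyd5 (Pearson r = 0.886), Ppef1 (0.864), AA467197 (0.844), Srgn (0.823) and Cyth4 (0.819). The P0 mean of each lay below its lowest passaged sample. The ranking included P0, where Anxa8 was low, so a low P0 was favored by the choice of these symbols. Without P0, over 63 samples, the values were 0.769, 0.685, 0.693, 0.757 and 0.684. Ranked on these 63 samples alone, which is outside the rule by which genes were named, the top 5 were Fxyd5, Srgn, Il1rl1 (0.731), Emilin2 (0.703) and Spink2 (0.694). Ppef1, AA467197 and Cyth4 thus left the top 5, though their values of 0.684 to 0.693 were close to that of Spink2. Samples of a route share their ancestry, so these correlations are descriptive.

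S100a4, the motility-associated S100 gene, was the only one of the 9 tested members called between P0 and P6, and it fell in both lung routes. The P0 samples stood at 2.76 and 3.16. The T-LM P6 samples stood at 1.74, 1.82, 1.53 and 1.78, and the K-LM P6 samples at 1.38, 1.84 and 1.80, all below both P0 samples. Of all probes tested, 43.0% had no overlap between P0 and P6 in T-LM and 56.0% in K-LM. KPT P6, at 3.09, 2.78, 2.78, 2.78 and 2.87, overlapped with P0. S100a4 fell by 1.44 ± 0.34 (SE) on the log2 scale in the T-LM route (limma, adjusted p = 0.00713) and by 1.18 ± 0.29 in the K-LM route (adjusted p = 0.00964), and the fitted change in KPT was -0.27 ± 0.47 (adjusted p = 0.83). The threshold was an adjusted p of 0.01 over all probes tested, and the 2 calls were close to it. Each was lost when any 1 sample of the compared groups was left out, with adjusted p-values of 0.0132 to 0.0932 (T-LM) and 0.0183 to 0.191 (K-LM), while the fitted change stayed between -1.54 and -1.34 and between -1.43 and -0.98. With the second S100a4 probe the changes were -1.10 (adjusted p = 0.0677) and -1.17 (0.0285).

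Between P0 and P6, 0 of 9 members were called in KPT, where 3.80% of 20983 probes passed. T-LM had 1 of 9, beside 7.25% of 21384 probes, and K-LM likewise 1 of 9, beside 4.85% of 22331. In KPT, 0 of the 9 members also had an unadjusted p under 0.05. Here and below, counts at this cutoff are given without the share over all probes, so they cannot show an excess. The median fitted change of the 9 members was 0.23, 0.33 and 0.07 in the same order of routes, beside -0.02, 0.01 and 0.02 over all probes tested. The 8 members not called had fitted changes from -0.36 to 0.80 (T-LM) and from -0.13 to 0.59 (K-LM). The 3 comparisons share the P0 samples.

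**Figure D2:**
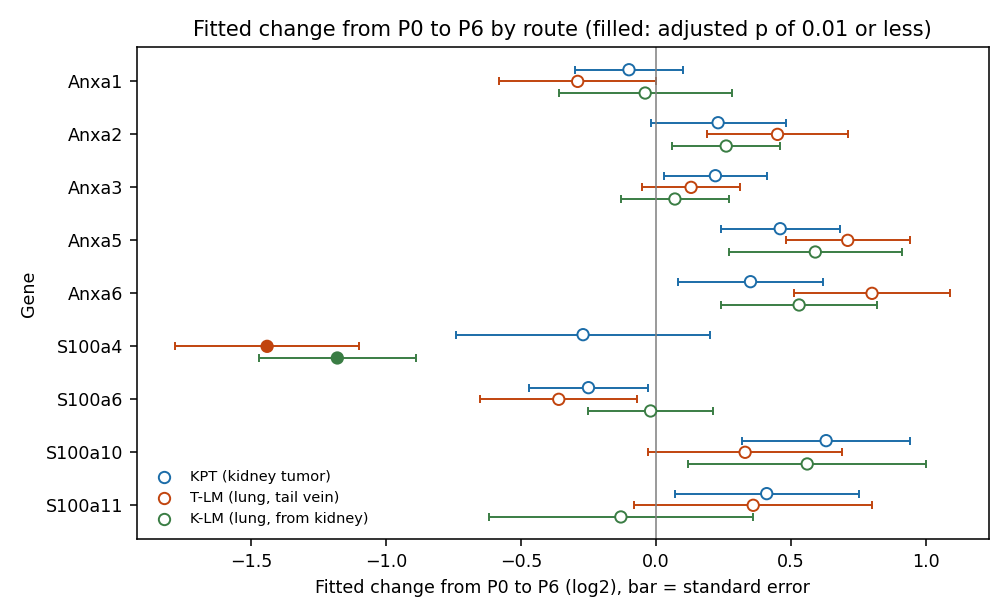
Fitted change from P0 to P6 (log2, x axis) of the 9 tested genes (y axis) in KPT, T-LM and K-LM (color), with standard errors as bars. Filled points, S100a4 in T-LM (-1.44) and K-LM (-1.18), have an adjusted p of 0.01 or less, and open points do not.

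At P6, S100a4 also differed between the kidney and lung routes. S100a4 was lower in T-LM than in KPT (-1.21 ± 0.14, limma adjusted p = 5.99e-06) and lower in K-LM than in KPT (-1.08 ± 0.16, adjusted p = 1.17e-04), and no sample of either lung route reached the lowest KPT sample. Of all probes, 19.4% had no overlap at P6 between T-LM and KPT and 40.0% between K-LM and KPT. Both kidney-to-lung differences kept their call when any 1 sample was left out, and lost it only when all routes and passages were fitted in 1 model (adjusted p = 0.019 and 0.0698). At P6 1 slide held both T-LM and KPT (difference -1.38) and the later slide held both K-LM and KPT (-1.17). Repeat arrays read S100a4 between 0.59 lower and 0.09 higher than the first arrays of the same 5 RNA samples. The kidney-to-lung difference was not called at P5. There the S100a4 mean was 2.30 ± 0.86 SD in KPT (n = 5) and 2.38 ± 0.51 in T-LM (n = 6). Within slides that held both routes at P5, T-LM minus KPT ran from -0.55 to 1.37 (3 slides, 1 of them lower). K-LM minus KPT ran from -0.93 to -0.07 (2 slides, 2 of them lower).

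At P6, 2 of 9 members were called between T-LM and KPT (11.3% of 22077 probes), 1 of 9 between K-LM and KPT (15.4%) and 0 of 9 between K-LM and T-LM (11.8%). At an unadjusted p under 0.05, 1 member differed between K-LM and T-LM. The other call between T-LM and KPT was Anxa6, an annexin with a duplicated core that binds membranes and cytoskeleton. Its levels were -0.32, -0.04, -0.32, -0.13 and -0.22 in KPT P6 and 0.18, 0.31, 0.24 and 0.09 in T-LM P6. The ranges did not overlap, as for 19.4% of all probes, and the fitted difference was 0.45 ± 0.09 (adjusted p = 0.00179). The call was lost under 5 of 23 alternatives, the slide as a term among them. Between P0 and T-LM P6 Anxa6 had a fitted change of 0.80 ± 0.29, which did not pass (adjusted p = 0.0878).

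The summed level of the 8 fibroblast markers at P6 was -1.03 to 0.15 for KPT, 0.98 to 2.75 for T-LM samples and -0.06 to 1.57 for those of K-LM, with 6 to 7, 7 to 8 and 6 to 7 of the markers well above background per sample. Pdgfra was well above background in 0 of 5, 3 of 4 and 1 of 3 of these samples. The 8 macrophage markers summed to 1.56 to 2.04, 1.41 to 1.62 and 1.14 to 1.74, against 1.23 and 1.04 in P0. Csf1r, Cd68, Lyz2 and Itgam were well above background in every P0 and P6 sample. Tyrobp was so in 4 of 5 KPT, 4 of 4 T-LM and 0 of 3 K-LM P6 samples, and Fcer1g in 5, 4 and 0. Ptprc was so in 4, 2 and 0 and Adgre1 in 0, 2 and 0, each with 0 in P0, like Tyrobp and Fcer1g. The part of these cell types in the S100a4 and Anxa6 differences was not tested. Over the 63 passaged samples, the fibroblast sum correlated with Anxa6 at r = 0.78 and with S100a4 at r = -0.56. In P0 this sum stood at -4.72 and -4.90.

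S100a4 did not fall steadily with passage. It was low at P1 in the kidney route, at 1.74, 1.78, 1.16, 1.01 and 0.69, all below P0 (32.9% of all probes had no overlap here), and the fitted change was -1.88 ± 0.46 (adjusted p = 0.0117), just outside the threshold. It passed under 4 of 22 alternatives, 1 of them without KPT P1 replicate 1 (adjusted p = 0.00952). In T-LM P1 the samples stood at 0.92, 2.05, 1.77, 1.41 and, for LOT1, 3.14. With LOT1 the change from P0 was -1.30 ± 0.42 (adjusted p = 0.0537), and without it -1.62 ± 0.35 (adjusted p = 0.00309). Leaving out replicate 2 instead, the lowest sample, gave -1.06 ± 0.40 (adjusted p = 0.108). The call thus depended on which sample was left out.

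At P3 the levels overlapped with those of the parental cells in every route. KPT P3 stood at 2.97 and 2.85, T-LM P3 at 3.15, 2.50 and 3.02, and K-LM P3 at 2.52, 2.63, 2.82, 3.33 and 3.01. In KPT, S100a4 rose by 1.61 ± 0.35 from P1 to P6 (adjusted p = 0.00246), the only member of 9 called there (11.7% of 22037 probes). With the long mRNA index (relative to ribosomal protein genes) as a covariate this call was lost (1.63, adjusted p = 0.0132). In T-LM 0 of 9 members were called from P1 to P6 (9.08% of 23493 probes, 0 of the 9 having an unadjusted p under 0.05). From P3 to P6 the fitted change of S100a4 was -1.17 ± 0.30 for T-LM (adjusted p = 0.0123) and -0.99 ± 0.26 for K-LM (adjusted p = 0.0183), and the P3 and P6 samples of these routes did not overlap, as for 23.8% and 34.8% of all probes. The change for K-LM was -0.57 (adjusted p = 0.348) once that index entered the fit, whereas it passed under 5 of 23 alternatives. Without T-LM P3 replicate 3 the T-LM change passed (-1.37, adjusted p = 0.00868).

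**Figure D3:**
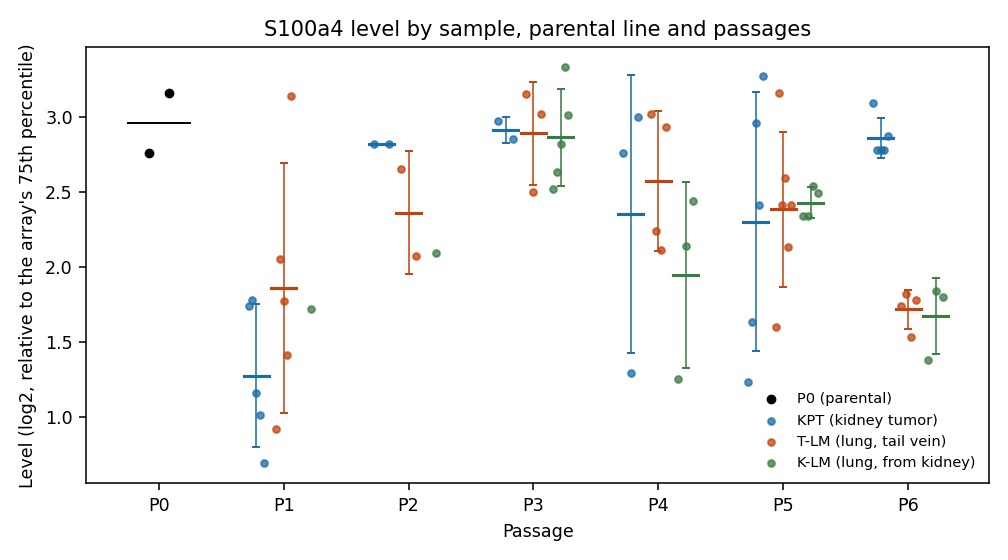
S100a4 level of each RNA sample (log2, relative to the 75th percentile of its array, y axis) by passage (x axis) and route (color), with group means and 1 SD. KPT P6 samples lie at 2.78 to 3.09, within the range of P0, and T-LM and K-LM P6 samples at 1.38 to 1.84.

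In 3 groups the samples that differed most in Anxa8 also differed in S100a4, in the opposite direction. In KPT P5, replicates 1 and 2, high in Anxa8, stood at 1.23 and 1.63 in S100a4 against 2.96, 2.41 and 3.27 in the others, and in KPT P1 replicates 1 and 2, low in Anxa8, were the highest in S100a4. In T-LM P1, LOT1 was the lowest in Anxa8 and the highest in S100a4. The samples low in Anxa8 in these groups had the lowest fibroblast sums, -1.53 and -1.40 in KPT P1 and -1.31 in LOT1, and the part of these markers was not tested. Over all 63 passaged samples the correlation of the 2 genes was weak (r = -0.22).

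From P3 to P6, 0 of 9 members were called in KPT (0.772% of 20983 probes), T-LM (7.05% of 21384) or K-LM (3.49% of 22331) by limma. At an unadjusted p under 0.05 1 member passed in KPT, as in K-LM, and 2 passed in T-LM. The S100a10 change in KPT, -0.83 ± 0.31, was the largest there (adjusted p = 0.117). S100a10 is the partner of Anxa2.

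Anxa5, which binds phosphatidylserine on the outer membrane of dying cells, was the only member called from P0 to P1. Its levels were 1.14 and 1.26 in P0 and 1.89, 2.03, 2.20, 2.38 and 2.37 in KPT P1. It rose by 1.06 ± 0.22 (limma, adjusted p = 0.00374), and 1 of 9 members was called against 4.50% of 22037 probes. The call was lost under 9 of 21 alternatives, with adjusted p-values of 0.0789 and 0.0345 when either P0 sample was left out and of 0.012 to 0.026 under the other 7. In T-LM P1, 4 samples stood at 2.16 to 2.51 and LOT1 at 1.22. The fitted change there was 1.00 ± 0.28 (adjusted p = 0.0259) and 1.23 ± 0.22 without LOT1 (adjusted p = 6.40e-04), so that 0 of 9 members were called in T-LM with LOT1 (2.71% of 23493 probes, 3 members at an unadjusted p under 0.05) and 2 of 9 without it (Anxa5 and S100a4, against 8.14% of 23122 probes). Leaving out any other single T-LM P1 sample kept the count at 0.

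The Anxa5 level was lower again at P6, at 1.41 to 1.67 in KPT, and the fitted change from P1 was -0.60 ± 0.16 (adjusted p = 0.0129), passing under 7 of 24 alternatives, 1 of them without KPT P1 replicate 1 (-0.67, adjusted p = 0.00984). From P0 to P6 the fitted change of Anxa5 passed in no route. It was 0.46 ± 0.22 for KPT (adjusted p = 0.291), 0.71 ± 0.23 for T-LM (0.0504) and 0.59 ± 0.32 for K-LM (0.331). All P6 samples, from 1.41 to 2.01, lay above both P0 samples, a lack of overlap shared by 33.7% (KPT), 43.0% (T-LM) and 56.0% (K-LM) of all probes. Anxa5 correlated with the fibroblast sum at r = 0.61 over the 63 passaged samples. In P1 this sum ran from -1.53 to 3.45 in KPT and from -1.31 to 3.99 in T-LM, against -4.90 and -4.72 in P0. The part of fibroblast RNA in the Anxa5 change was not tested.

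Anxa2, the scaffold that joins S100a10 at the membrane, was called in no comparison. Its levels were 3.50 and 3.61 in P0, and its group means spanned 1.06 units, from 3.54 in KPT P2 to 4.60 in T-LM P5. At P5 the 6 T-LM samples ran from 4.19 through a median of 4.70 to 4.84, and the KPT samples stood at 4.44, 4.24, 3.68, 3.42 and 4.24. The fitted difference of 0.60 ± 0.17 did not pass (adjusted p = 0.0253), but did without KPT P5 replicate 1 (0.71, adjusted p = 0.00992). It shrank to 0.19 after normexp background correction (adjusted p = 0.371) or in the series table (0.369), and to 0.26 after quantile normalization (0.15). S100a10 was higher in K-LM P5, at 1.32, 2.17, 1.37 and 2.23, than in any KPT P5 sample, at 0.47, 0.49, 0.90, 0.65 and 1.14, and 4364 of 21828 probes had no overlap between these groups. Its difference of 1.04 ± 0.31 did not pass either (adjusted p = 0.029).

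At P5 limma called 0 of the 9 members other than Anxa8 in each pair of routes, against 3.67% of 21828 probes for T-LM minus KPT, 5.34% for K-LM minus KPT and 2.47% for K-LM minus T-LM. At an unadjusted p under 0.05 there were 2, 2 and 4 members. The shares above are those at the adjusted threshold, so these counts cannot be set against them.

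The remaining members were called in no comparison. Anxa1, a mediator of the resolution of inflammation, had group means from 2.47 to 3.44, and its partner S100a11 from 0.29 to 1.26. Anxa3 had the narrowest span, from 0.41 to 0.91. S100a6, a gene of proliferating cells, ran from 3.41 in KPT P1 to 4.50 in K-LM P3. In none of Anxa1, Anxa3, S100a4, S100a6, S100a10 and S100a11 did any neighboring pair of the 19 ordered group means have ranges without overlap. The arrays also differed in an index of 19 long mRNAs relative to 79 ribosomal protein genes, whose group means ran from -8.71 in K-LM P5 to -6.09 in T-LM P1. S100a6 and S100a10 both followed this index with r = -0.62 over the passaged samples. For S100a4 r was -0.46, for Anxa2 -0.45, and for the other members between -0.39 and 0.25. In alternative fits with the index as a covariate, S100a6 and S100a10 were again called in no comparison. What lies behind these correlations was not tested.

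**Figure D4:**
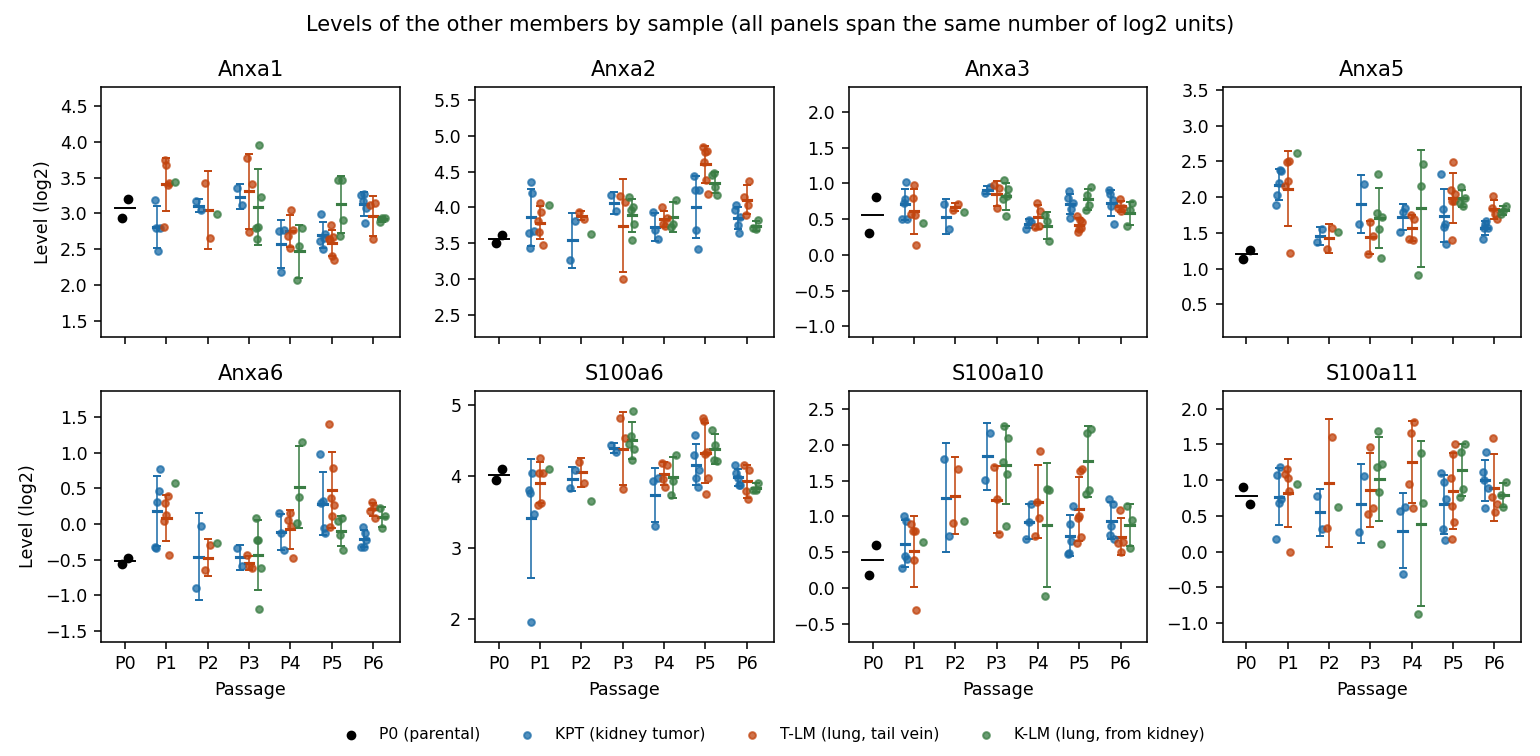
Levels of the other 8 genes by sample (log2, y axis, the same span in each panel) over passages (x axis), with group means and 1 SD. The group means of each gene span less than 1.5 units.

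Among pairs of members, levels over the 63 passaged samples correlated most for Anxa5 with Anxa6 (r = 0.59), Anxa2 with Anxa8 (0.59) and S100a10 with S100a11 (0.57), and S100a4 correlated negatively with Anxa6 (-0.57) and Anxa5 (-0.52). The biochemical partners Anxa2 and S100a10 had r = 0.08, and Anxa1 and S100a11 had r = -0.13.

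Other genes of both families gave further calls. Of 19 such genes with a probe, 12 were tested from P0 to P6 in KPT with 1 called higher and 0 lower. T-LM had 13 tested with 3 higher and 0 lower, and K-LM 12 with 0 higher and 2 lower. The shares over all probes were the 3.80%, 7.25% and 4.85% given above. S100a14, an S100 gene of epithelia, was not well above background in either P0 sample (-9.38 and -8.71) and stood at -3.76, -3.24, -3.21 and -3.94 in T-LM P6. In T-LM it was well above background in 4 of 4 samples at P4 (mean -5.54) but in 0 of 6 at P5 (mean -8.14). Against the lowest signal well above background it rose by at least 6.31-fold on the first arrays, and the fitted change of 4.93 ± 0.40 (limma adjusted p = 5.93e-08) was 2.66 when dim signals were raised to that floor (adjusted p = 1.33e-04). At P6 it was higher in T-LM than in KPT by 3.05 ± 0.30 (adjusted p = 8.32e-07), a call lost with slide as a fixed term (2.57, adjusted p = 0.0135), and none of the 3 K-LM P6 samples was well above background.

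S100a8, which with S100a9 forms calprotectin of neutrophils, stood at -5.97 and -8.08 in P0, the second not well above background. The T-LM P6 samples stood at -3.18, -3.06, -2.56 and -3.11, the K-LM P6 samples at -3.60, -4.02 and -1.87, and the KPT P6 samples, 2 of 5 of them well above background, between -8.02 and -6.97. S100a8 rose in T-LM (4.00 ± 0.67, adjusted p = 3.42e-04), a call lost without P0 replicate 2 (2.99, adjusted p = 0.0281), and the fitted change in K-LM was 3.87 ± 0.99 (adjusted p = 0.0143). Both lung routes were above KPT at P6, by 4.31 ± 0.43 (adjusted p = 9.60e-07) for T-LM and 4.17 ± 0.50 (adjusted p = 1.08e-05) for K-LM. The T-LM difference fell just outside the threshold with slide as a fixed term (4.44, adjusted p = 0.0101). In KPT it fell from P1, where the samples lay between -5.34 and -2.43, to P6 (-3.56 ± 0.78, adjusted p = 0.00287). Its partner S100a9 was well above background in 3 of 65 samples. Of the neutrophil markers, Ltf was well above background in 0 of 65 samples, Ngp in 1, Camp in 9, Mpo in 15 and Elane in 65. Mpo was so in 4 of 4 T-LM P6, 4 of 5 KPT P6, 0 of 3 K-LM P6 and 0 of 2 P0 samples.

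S100a3 and S100a1 were called lower in K-LM. S100a3, known from hair cuticle cells, stood at -3.44 and -2.93 in P0 and at -5.01, -5.60 and -5.11 in K-LM P6, a fall of -2.10 ± 0.27 (adjusted p = 1.19e-05). Its K-LM means from P1 to P5 lay between -3.89 and -3.33, and all K-LM P6 samples lay on the later slide. In T-LM it was lower at P5 (mean -4.72) than at P6 (-4.03). At P6 it was lower in K-LM than in KPT (-1.63 ± 0.19, adjusted p = 8.90e-06) and than in T-LM (-1.36 ± 0.22, adjusted p = 3.21e-04), the latter not past the threshold with slide as a fixed term (-1.16, adjusted p = 0.0167). S100a1, known from heart muscle, had a change of -0.88 ± 0.21 (adjusted p = 0.00851), a call lost under 15 of 21 alternatives, the loss of any 1 sample among them. S100a2 was called higher in KPT (1.08 ± 0.23, adjusted p = 0.00593) and T-LM (1.41 ± 0.33, adjusted p = 0.00668), but it was well above background in only 12 of 65 samples and its sign turned when dim signals were raised to a floor. Anxa4, Anxa7, Anxa9, Anxa11, S100a13, S100a16 and S100b were called in no route from P0 to P6, with fitted changes from -1.50 (S100b in K-LM, adjusted p = 0.185) to 0.95 (S100a16 in KPT, adjusted p = 0.0201, which passed under 5 of 23 alternatives).

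**Figure D5:**
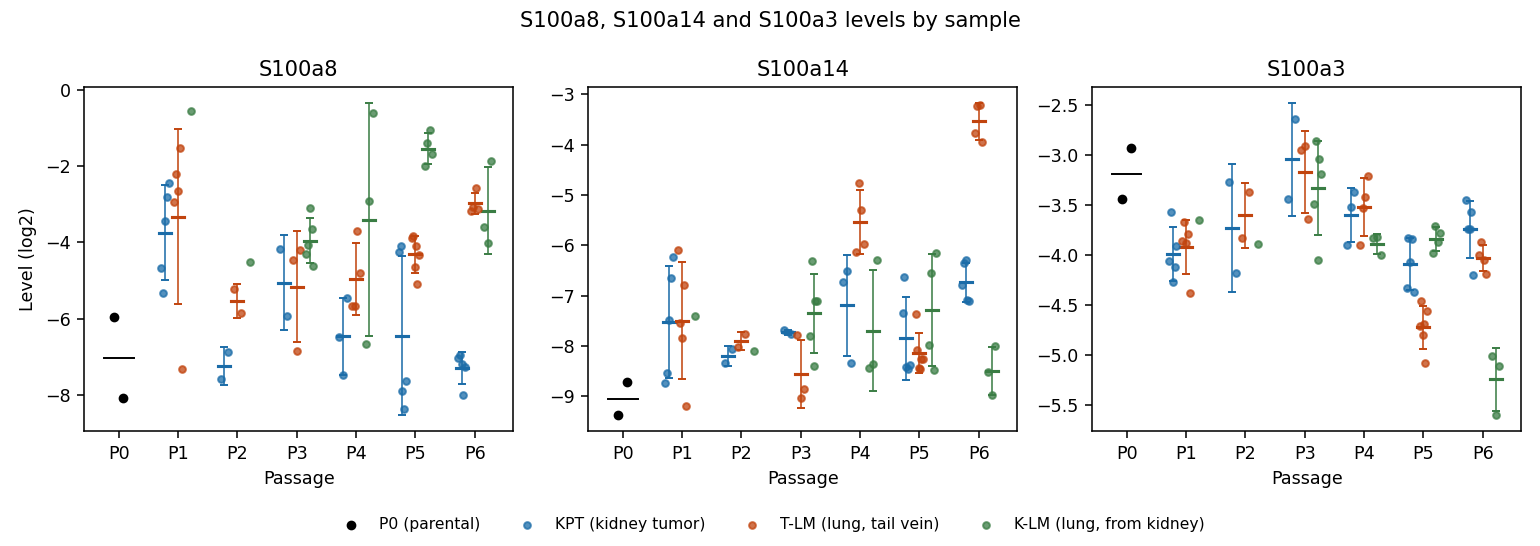
Levels of S100a8, S100a14 and S100a3 by sample (log2, y axis) over passages (x axis), colored by route. At P6, S100a8 lies at -4.02 or above in T-LM and K-LM and at -6.97 or below in KPT, S100a14 is highest in T-LM, and S100a3 is lowest in K-LM.

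Among 17 genes of annexin and S100 partners and receptors, 14 were tested from P0 to P6 in each route, with 1 called higher for KPT, 2 for T-LM, 0 for K-LM, and 0 lower in any, beside the same 3.80%, 7.25% and 4.85% of all probes. Pla2g4a, the cytosolic phospholipase that annexins can inhibit, stood at -3.27 and -2.93 in P0, between -1.40 and -1.13 in KPT P6 and between -1.68 and -1.24 in T-LM P6. It rose by 1.85 ± 0.22 in KPT (adjusted p = 2.43e-05) and by 1.78 ± 0.31 in T-LM (adjusted p = 5.79e-04), the latter call being lost without P0 replicate 1 (1.53, adjusted p = 0.0298) and both with slide as a fixed term (adjusted p = 0.0114 and 0.0124). Ager, the RAGE receptor of several S100 proteins and an abundant gene of lung alveolar cells, was detected above background in 0 of 2 P0 and 3 of 4 T-LM P6 samples and rose by at least 1.49-fold in T-LM on the first arrays (fitted change 2.63 ± 0.57, adjusted p = 0.00385). This call was lost when dim signals were raised to the floor (0.58, adjusted p = 0.518), with slide as a fixed term (1.98, adjusted p = 0.133), without either P0 sample (adjusted p = 0.104 and 0.015) and without T-LM P6 replicate 2 (0.0128) or 3 (0.0103). In T-LM P6 the summed level of 6 lung epithelial markers ran from -3.11 to -0.73, against -4.98 to -4.68 in KPT P6, -4.14 to -3.46 in K-LM P6 and -5.58 to -5.50 in P0. Sftpc was detected above background in 4 of 4 T-LM P6 samples and Nkx2-1 in 0 of 65. Ager was detected above background in 2 of 4 T-LM P4 samples and in 0 of 6 T-LM P5 samples. The part of lung epithelial RNA in the S100a14 and Ager values was not tested.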

How the data were processed

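RNA of the cultured cells had been hybridized to single-color Agilent mouse gene expression arrays, and the deposited scanner files give each spot's processed signal intensity, background-corrected by the authors' scanner software. The deposited series table holds log2 values made by the authors and was used as an alternative. Spots that were controls or carried outlier flags were left out, spots of a probe were averaged, and each array's log2 processed signal was scaled by its 75th percentile over the 12218 probes well above background on all 70 arrays. The share of probes detected well above background was 25.3% on the poorest array and 55.3% on the best, and the number of samples limits the precision. Of 55681 probes, 28026 received a gene symbol through their transcript accession in the RefSeq table (GRCm38.p6, names only).

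Differences were tested with limma 3.58.1 in R 4.3.3 (lmFit and eBayes) on probes that 2 or more arrays of a fit detected well above background, with Benjamini-Hochberg adjustment over all of them and a threshold of 0.01. Errors are standard errors unless named otherwise. P0 to P6 and P3 to P6 fits left out P1, as in the study. Fits with K-LM P6 used the repeat arrays, a term for the later slide, and duplicateCorrelation to treat arrays of 1 RNA as a block. Scripts were tested on simulated data. The members and gene lists were chosen with earlier results of these data known. Named genes were the 10 members, related genes called from P0 to P6 or well above background in at least 10 samples, partners called from P0 to P6, and the 5 symbols correlating best with Anxa8. Folds of genes not well above background in a whole group are lower bounds from the first arrays, whose floor was higher than that of the repeat arrays. The normexp alternative used median signals, since the scanner files used here hold no mean signal. Alternatives in scaling, background correction, filter, slide terms, sample sets, probes and single samples were tried.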

Additional observations from a re-analysis of the deposited data

Results flagged for a closer look

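In T-LM P1, the sample labelled LOT1 stood apart from the other 4 samples in Anxa5 (1.22, against 2.16 to 2.51) and S100a11 (0.00, against 0.85 to 1.15). In KPT P1, replicate 3 stood apart in S100a6 (1.96, against 3.47 to 4.05). These were the 3 gaps past Dixon's 95% critical value among 89 groups of 4 to 10 samples checked, and chance flags about 5% of groups. In the fit that held P0 and the P6 samples of all routes, where the routes share P0, the change from P0 to P6 differed between routes for S100a4, by -1.21 for T-LM minus KPT and by -1.08 for K-LM minus KPT, and for Anxa6 by 0.45 for T-LM minus KPT. The test was that of the difference at P6. The changes from P0 given in the report come from other fits, so their differences are not exactly these values.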

How the results depend on the processing

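Of 243 other settings for the 16 counts of members called, 194 left the count within 1.5 times, counts of 0 that stayed at 0 included. Counts above 0 were less stable from P0 to P6, kept in 8 of 15 settings (T-LM) and 9 of 16 (K-LM). In KPT they were kept in 7 of 15 (P0 to P1) and 8 of 15 (P1 to P6). At P6 they were kept in 10 of 15 (T-LM minus KPT) and 15 of 16 (K-LM minus KPT). From P0 to P6 the count of 1 became 0 in both lung routes with all routes in 1 model, no filter, a replicate block or the other probe of a gene, in K-LM also with the percentile over all probes or a filter on all arrays, and in T-LM also with the mean of probes or slide as a fixed term, and it became 2 in both with only the compared groups. From P3 to P6 the count of 0 became 1 in both lung routes with normexp or the series table, in K-LM also with the mean of probes, quantile normalization or no slide term, and in T-LM also with the percentile over all probes, only the compared groups or slide as a random block. From P0 to P1 in KPT the count of 1 became 0 with the percentile over all probes, the long mRNA index as covariate, no filter, only the compared groups, a replicate block or slide as a fixed term, and 2 with a filter on all arrays or slide as a random block, and with all routes in 1 model it stayed at 1 with S100a4 in place of Anxa5. From P1 to P6 in KPT it became 0 with the index and 2 with a filter on all arrays, normexp, only the compared groups, quantile normalization, the series table or slide as a random block. In T-LM it rose from 0 to 1 from P0 to P1 with a replicate block and from P1 to P6 with the index or the series table. At P5 it rose from 0 to 1 for T-LM minus KPT with the percentile over all probes. At P6 it fell to 0 in 1 model for both lung routes minus KPT, and from 2 to 1 for T-LM minus KPT with the percentile over all probes, no filter, a replicate block or slide as a fixed term. Without single samples the counts ran from 0 to 0 (P0 to P6, T-LM and K-LM), 0 to 1 (P3 to P6 T-LM; P5 T-LM minus KPT), 0 to 2 (P0 to P1, KPT and T-LM), 1 to 2 (P1 to P6 KPT), 1 to 1 (P6 K-LM minus KPT) and 2 to 2 (P6 T-LM minus KPT), and stayed at 0 for the others.

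Signs turned for S100a4 from P0 to P6 in KPT (0.09 on the later slide, 0.23 with slide as a fixed term), Anxa2 at P5 for K-LM minus KPT (-0.04 with the index) and S100a2 with a floor on dim signals (-0.63 in KPT, -0.46 in T-LM). The cause was not tested. Same-numbered samples of 2 groups correlated between -0.419 and 0.709 in their deviations from the group means, so the numbers do not pair the samples, and the replicate block is given only for completeness. Dim parental signal limits the size of the Anxa8 and S100a14 changes, and the P0 group of 2 samples limits every comparison with it.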
